A study of Mus musculus with 108 samples.

Results

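In these mouse livers 10 transcripts stood apart for how far their level differed between chow and a high fat and sucrose diet: Cfd, Mfsd2a, Osbpl3, Treh, Gpc1, Themis, Mtnr1a, Adgrv1, Pcdh11x and Tcf24. They are 10 of 25125 gene symbols, each represented by its transcript with the highest mean, and they were selected on their measured HFD minus chow differences, which ranked among the largest in C57BL/6J (B6) or 129S1/SvImJ (129) livers, without belonging to a known diet-response family (HFD stands for the high fat and sucrose diet). Cfd, Mfsd2a, Gpc1 and Themis were picked for higher levels on HFD in B6, Osbpl3, Treh, Mtnr1a, Adgrv1 and Pcdh11x for higher levels in 129, and Tcf24 for lower levels in both strains. For this report a gene counted as picked in a strain when it was among the 10 largest rises or falls there, with the same sign at all 6 times. The diet effect of a gene in the strain that picked it is therefore given below as a description with no test, and tests are given only in the other strain and for daily rhythms. This rule was set afterwards to assign genes to strains. The selection itself looked at diet effects in both strains, so tests in the other strain are not fully free of it. At the edge of the choice, Mfsd2a in B6 was 3.10 higher on the log2 scale and ranked 9 among genes higher on the diet, followed by Snora78 at 3.04 and Fgf21 at 2.96. In 129, Adgrv1 was 2.64 higher at rank 8, followed by Aatk at 2.57, Saa1 at 2.55 and Myom3 at 2.47.

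RNA was sequenced from livers of male mice whose age the labels do not give, at zeitgeber times (ZT) 2, 6, 10, 14, 18 and 22, hours counted from lights on, with 3 replicates per time. Wild-type B6 and 129 mice ate normal chow or the high fat and sucrose diet D12492i, which makes 4 sets of 18 libraries in a shared table. A set labelled Errg-Cre (129S1/SvImJ, HFD) and a set labelled Esrrg LKO (B6 by title, B6S1/SvImJ by strain label, diet-induced obesity) have 18 libraries each, in tables of their own. The series describes its design as HFD-fed controls and mice with a hepatocyte-specific knockout of Esrrg, the gene of an orphan nuclear receptor. The values are quantile-normalised read signals per transcript, in which all columns of a table share 1 distribution, so that depth is unknown and levels can be compared across libraries of the same table only.

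The picked genes have little in common in what they encode. Mfsd2a carries lysophospholipids into cells, Osbpl3 moves lipids at contacts between membranes, and trehalase, encoded by Treh, splits the sugar trehalose into glucose. Complement factor D (Cfd, also called adipsin) is a secreted protease best known from fat cells, glypican 1 (Gpc1) carries heparan sulfate on the cell surface, and Themis is an adaptor of T cell receptor signalling in developing T cells. Mtnr1a encodes a melatonin receptor, Adgrv1 a very large adhesion receptor known from sensory hair cells, Pcdh11x an X-linked protocadherin, and Tcf24 a basic helix-loop-helix transcription factor.

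Members lay on 8 chromosomes of build mm10, each in an annotated RefSeq gene. Promoter entries from RefSeq (GRCm38.p6, the sequence of mm10) were matched for 7 of the 10 genes. The 250 bases before the annotated start are shown for Mfsd2a, Osbpl3 and Mtnr1a, the 3 genes that passed the rhythm test in at least 1 chow set, and for Cfd, whose level was higher in B6 on the diet and near 0 in 129. Motifs searched on both strands are in capitals, and a motif on the opposite strand is read as its reverse complement. The Osbpl3 window precedes the start of another RefSeq transcript than the one measured and lies partly inside the measured gene. The windows are chr4:122961189-122961438 on the minus strand for Mfsd2a, chr6:50456171-50456420 on the minus strand for Osbpl3, chr8:45068857-45069106 on the plus strand for Mtnr1a and chr10:79890603-79890852 on the plus strand for Cfd.
Mfsd2a: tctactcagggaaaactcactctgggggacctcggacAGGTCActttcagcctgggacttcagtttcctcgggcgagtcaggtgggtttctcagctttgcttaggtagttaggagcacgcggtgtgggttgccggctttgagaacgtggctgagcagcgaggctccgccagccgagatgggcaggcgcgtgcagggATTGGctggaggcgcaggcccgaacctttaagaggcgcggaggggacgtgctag
Osbpl3: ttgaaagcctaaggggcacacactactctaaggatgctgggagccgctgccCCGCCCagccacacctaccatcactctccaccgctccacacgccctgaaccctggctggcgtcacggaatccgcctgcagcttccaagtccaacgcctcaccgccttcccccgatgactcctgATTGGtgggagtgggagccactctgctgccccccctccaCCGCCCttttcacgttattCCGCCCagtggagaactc
Mtnr1a: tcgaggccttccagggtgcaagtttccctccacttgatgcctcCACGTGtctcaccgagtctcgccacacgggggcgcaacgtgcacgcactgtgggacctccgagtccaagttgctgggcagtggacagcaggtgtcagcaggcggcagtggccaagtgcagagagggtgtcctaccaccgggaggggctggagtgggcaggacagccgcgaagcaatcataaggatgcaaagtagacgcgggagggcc
Cfd: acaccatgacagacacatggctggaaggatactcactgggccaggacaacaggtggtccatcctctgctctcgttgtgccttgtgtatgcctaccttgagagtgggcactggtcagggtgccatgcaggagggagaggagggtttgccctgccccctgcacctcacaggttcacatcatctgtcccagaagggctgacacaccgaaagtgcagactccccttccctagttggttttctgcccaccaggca

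The motifs were the TATA box TATAAA, the CCAAT box read as CCAAT, the GC box GGGCGG, the E-box CACGTG bound by clock factors, the core nuclear receptor site AGGTCA, the extended site of estrogen-related receptors TCAAGGTCA, which contains the core site, and the D-box TTATGNAA. Among 32851 promoter windows of the same length they occurred in 12.4%, 33.8%, 32.7%, 6.02%, 14%, 0.387% and 3.07%, in that order. The Mtnr1a window held CACGTG from base -207 to -202 before the start. Mfsd2a had AGGTCA at -213 to -208 and CCAAT on the opposite strand at -54 to -50. Osbpl3 had GGGCGG on the opposite strand at 3 places and CCAAT on the opposite strand. No motif of the list was found in the Cfd window or in the windows of Themis. Treh held AGGTCA on the opposite strand. Adgrv1 held AGGTCA, and CCAAT on the opposite strand at -64 to -60. Cfd had 2 CpG dinucleotides, against 17 in Mfsd2a, 15 in Mtnr1a, 13 in Osbpl3 and a median of 6 over all windows. These matches describe letters in the window and show no binding.

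Several libraries stood apart and touch the results below. In 1 B6 HFD library (ZT22, replicate 3) summed neutrophil markers were 22992, against 1.12 to 16.2 in the other libraries of its set, the acute-phase gene Saa1 was 110330 against 91.1 to 9658, and the carbonic anhydrase Car3 was 93.1 against 11289 to 22394. A B6 chow library (ZT14, replicate 3) had 14.8% of tested genes under a value of 1, a 129 chow library (ZT22, replicate 3) 6.95% and a B6 HFD library (ZT6, replicate 1) 3.25%. The microRNA locus Mir6236 ranged from 32.8 to 1171 in B6 chow and from 915 to 91012 in B6 HFD, and with its level as a covariate the diet calls over all genes in B6 went from 6792 to 565. In 129 chow it moved with time: it was at most 3213 in the 9 libraries from ZT2 to ZT10 and 35151 to 61431 in 8 of the 9 from ZT14 to ZT22. Of 11 Kupffer cell markers 7 rose with diet in B6 and 6 in 129, of 8 stellate cell markers 7 and 3, and of 8 sinusoidal endothelial markers 6 and 2, with 1 falling in 129. Of 13 hepatocyte markers 4 rose and 6 fell in B6, and 2 rose and 2 fell in 129. Beside these counts and those of the gene lists below, 27.5% of all tested genes rose and 32.7% fell in B6. In 129 the shares were 10.9% and 7.45%. The summed hepatocyte markers had a median of 1447600 in B6 chow and 489300 in B6 HFD, and of 966650 and 1431000 in 129, and Alb was lower on HFD by -1.73 in B6 and higher by 0.86 in 129. Much of that sum in B6 chow was Alb, which stood at the same value, 863450, in all 18 libraries of that set. Under the shared distribution the sum follows the ranks of a few top genes and does not measure an amount of hepatocyte RNA. The part of these marker shifts in the results below was not tested, and in whole liver fewer cells of a type and less RNA per cell cannot be told apart. Gene-level Esrrg signal averaged 27.4 in the libraries labelled Errg-Cre and 17.7 in those labelled Esrrg LKO, without labelled control libraries in their tables, so both sets are only described.

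**Figure D1:**
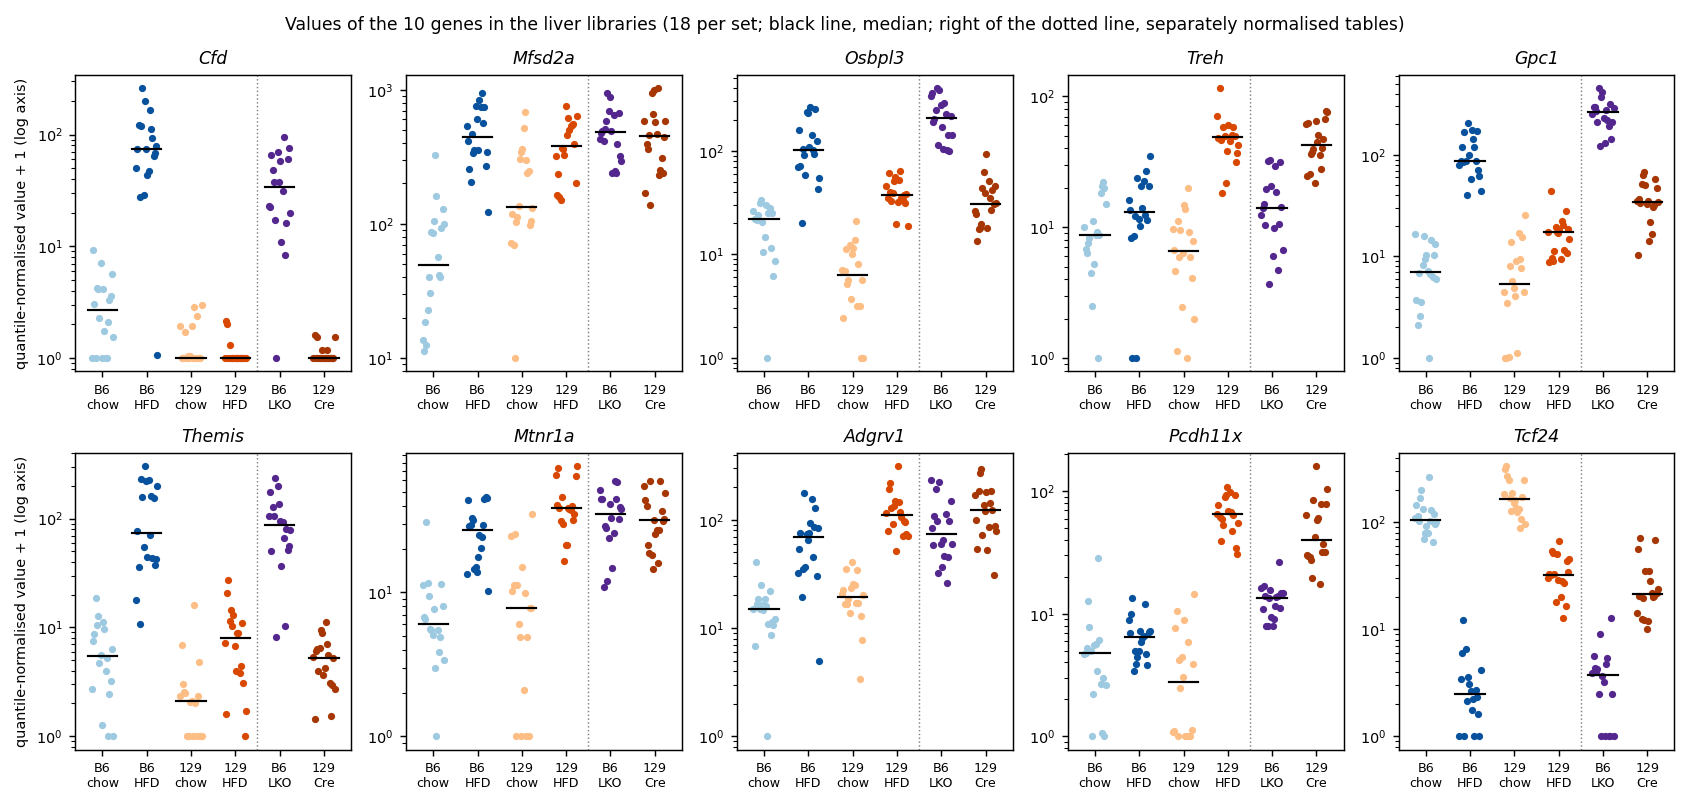
Quantile-normalised value + 1 of each of the 10 genes in every library, on a log axis, by strain, diet and labelled genotype; each point is 1 library, black lines are medians, and the sets right of the dotted line (libraries labelled Esrrg LKO and Errg-Cre) come from separately normalised tables. Cfd stands high in the B6 HFD sets and near 0 in every 129 set, Pcdh11x is high in the 129 HFD sets, and Tcf24 is lower on HFD in both strains.

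Both lipid handling genes were higher on HFD in both strains. Mfsd2a (chr4:122946851-122961188, minus strand), the sodium-dependent transporter of lysophosphatidylcholine, had a lowest, median and highest value of 10.18, 47.9 and 325 in B6 chow and of 121, 442 and 945 in B6 HFD. In 129 the same values were 9.01, 133 and 676 on chow and 149, 380 and 754 on HFD. The libraries of both diets overlapped in each strain, and in 129 17 of the 18 HFD libraries lay at or below the highest chow library. On the log2(value + 1) scale, which understates changes of low values, Mfsd2a was 3.10 ± 0.22 (SE) higher on HFD in B6. In 129, which did not pick it, it rose by 1.21 ± 0.22 (limma, adjusted p = 4.14e-05, 18 against 18 libraries) and had the same sign at 6 of 6 times.

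The single times gave Mfsd2a differences of unequal size, though the cosine test of a change over time with diet did not pass (limma, adjusted p = 0.602 in B6 and 0.364 in 129). In B6 it was 4.77 at ZT2, where chow libraries averaged 13.5 ± 3.77 (SD, n = 3) and HFD libraries 402 ± 141, and 1.77 at ZT14, where they averaged 196 ± 115 and 642 ± 253. The smallest B6 difference, 1.08, was at ZT22, where the diets overlapped at means of 106 and 245. The HFD replicates there were 269, 345 and 121, and the chow replicates 92.6, 128 and 99.2. The 121, also the lowest value of the B6 HFD set, came from the library with high neutrophil markers. That library thus gave the overlap and entered the size of the ZT22 difference. In 129 it passed the test at ZT6 (2.08, limma adjusted p = 0.0358) and ZT22 (1.73, adjusted p = 0.0399). The 129 chow replicates at ZT6 were 9.01, 102 and 111, so that 1 low library entered the ZT6 call. At ZT14 in 129 the diets averaged 519 ± 159 and 527 ± 82.0, a difference of 0.06. In 129 the chow libraries thus came nearest to the HFD libraries at ZT14. Mfsd2a averaged 498 ± 209 (SD, n = 18) in the libraries labelled Esrrg LKO and 491 ± 275 in those labelled Errg-Cre.

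Osbpl3 (chr6:50293327-50456354, minus strand), an oxysterol-binding protein relative, was picked in 129 and tested in B6. Its lowest, median and highest values were 0, 5.31 and 19.9 in 129 chow, 17.9, 36.8 and 63.4 in 129 HFD, 0, 20.8 and 32.4 in B6 chow and 19.0, 101 and 266 in B6 HFD. In B6 only 1 HFD library lay within the chow range, and in 129 the diets did not overlap at any single time. Osbpl3 rose by 2.64 ± 0.30 in B6 (limma, adjusted p = 2.17e-10) and was 2.77 ± 0.30 higher in 129. The B6 rise passed the test at ZT10, ZT14, ZT18 and ZT22, with adjusted p from 8.75e-05 to 0.0263. Its level was lower in 129 than in B6 on chow, by -1.55, and on HFD, by -1.41, as 129 minus B6 on the log2 scale. The libraries labelled Esrrg LKO averaged 222 ± 101 and those labelled Errg-Cre 34.6 ± 19.8. The B6 chow library with many low genes (ZT14, replicate 3) gave the 0 of Osbpl3, and also the 0 of Gpc1, Mtnr1a and Adgrv1 in that set. That library thus entered their B6 differences at ZT14.

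Of 11 tested genes that handle lysophospholipids 7 rose and 3 fell in B6, among them the sphingosine-1-phosphate exporter Spns2 (1.09), the lysosomal lysophospholipid transporter Spns1 (0.92) and the plasma enzyme Lcat (0.92). In 129, 2 rose and 1 fell, with Lpcat1 at 0.73 and Mboat7 at -0.57. The list medians were 0.31 and -0.01, beside -0.06 and 0.04 over all tested genes. Of all tested genes 27.5% rose and 32.7% fell in B6, and 10.9% rose and 7.45% fell in 129, and these shares apply to each list. Of 9 tested genes of oxysterol-binding proteins and their partners 2 rose and 1 fell in B6 (Osbpl5 0.87, Vapa -0.36), and 1 rose in 129 (Osbpl8 0.21).

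Treh (chr9:44673233-44686305, plus strand) was high in 129 livers on HFD. Lowest, median and highest values were 0, 5.53 and 19.0 in 129 chow and 17.3, 47.7 and 115 in 129 HFD, with 1 HFD library at or below the highest chow library. B6 chow libraries had 0.003, 7.77 and 21.3, and B6 HFD libraries 0, 12.0 and 33.9, with 14 of the 18 HFD libraries at or below the highest chow library. The 129 difference was 2.99 ± 0.36, with diets not overlapping at any time. In B6 the difference was 0.46 ± 0.36 and did not pass the test (limma, adjusted p = 0.264). Libraries labelled Errg-Cre averaged 45.9 ± 17.8 and those labelled Esrrg LKO 15.2 ± 9.66. The highest B6 HFD value, 33.9, came from the library with high neutrophil markers. Of 10 tested genes of glucosidases and related enzymes 2 rose and 1 fell in B6, the lysosomal Gaa at 1.45 among them, and 3 rose in 129, including the amylase Amy1 at 0.70. The annotated Phldb1 gene lay 3 bases beyond the end of Treh, and it rose in B6 (1.64, adjusted p = 5.27e-06) where Treh did not pass, with -0.24 (adjusted p = 0.645) in 129. Strand is not stated for the libraries, so reads of such close or overlapping genes may not be told apart.

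**Figure D2:**
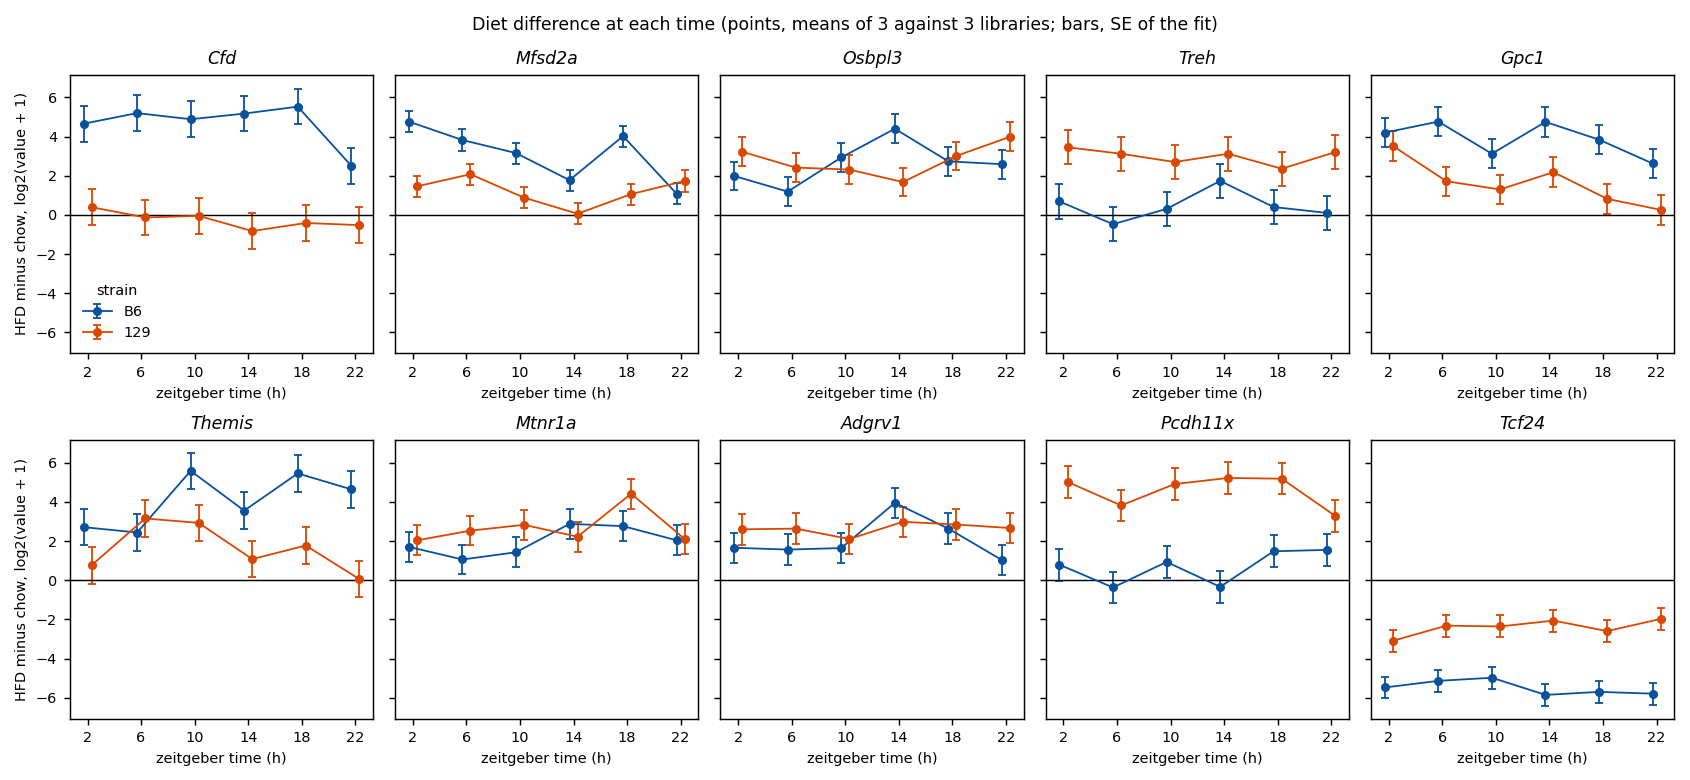
HFD minus chow difference of each gene at each zeitgeber time, in log2(value + 1), for B6 and 129; points are differences of 3 against 3 library means and bars are standard errors of the limma fit. Mfsd2a in 129 is close to 0 at ZT14, and Tcf24 is below 0 at all times in both strains.

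Cfd (chr10:79890853-79892655, plus strand) encodes the protease that cleaves factor B in the alternative complement pathway. It was all but missing from 129 livers, where the highest of 36 wild-type libraries reached 1.97, and low in B6 chow, with lowest, median and highest values of 0, 1.67 and 8.20. In B6 HFD they were 0.065, 72.8 and 260. Of the 18 B6 HFD libraries 17 stood above all B6 chow libraries, and the exception, at 0.065, was the library with high neutrophil markers. The B6 difference was 4.66 ± 0.37, and 5.0 ± 0.30 without that library. In 129 Cfd averaged 0.437 on chow and 0.138 on HFD, with all 12 HFD libraries from ZT10 to ZT22 listed at 0, so a test of diet there says nothing.

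Cfd varied widely within B6 HFD. At ZT6 its replicates were 26.7, in the library with 3.25% of genes under 1, and 119 and 260, and at ZT18 they were 112, 92.2 and 63.7. On HFD the mean was lower in 129 than in B6 by -5.83 on the log2 scale. The libraries labelled Esrrg LKO, B6 by title, averaged 37.9 ± 26.9 (SD, n = 18) with a range of 0 to 94.4, and those labelled Errg-Cre, 129, averaged 0.111 with a highest value of 0.603. These 2 tables were normalised separately, so their levels are not compared.

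The fat cell list held genes of both kinds. The hormone and coat genes Adipoq, Plin1, Lep and Retn averaged 0.446 or less in every wild-type set. The lipid droplet gene Cidec rose in B6 from 8.24 to 106 (2.77 ± 0.45, limma adjusted p = 6.71e-07), and the hormone-sensitive lipase gene Lipe from 21.1 to 42.6 (1.35 ± 0.28, adjusted p = 5.6e-05). The summed fat cell list ranged from 13116 to 24683 in B6 chow and from 139 to 26301 in B6 HFD, most of it from Car3. The 139 came from the library with high neutrophil markers, against 12429 to 26301 in the other libraries of its set. Of the 5 tested genes of the list Cidec and Lipe rose in B6. Fabp4, shared by fat cells and endothelium, averaged 43.5 and 46.9 in B6 chow and HFD, and Cidea, a lipid droplet protein below the filter, 2.04 and 25.3. The part of fat cells in the Cfd level was not tested. Of 16 tested complement genes 5 rose and 7 fell in B6, with the properdin gene Cfp at 1.14, C8g at 0.88, C9 at -0.96 and C6 at -0.78. In 129, 4 rose and 3 fell, with C8g at 0.51 and C6 at 0.46. The list medians were -0.24 and 0.13. The neighbouring Med16, a Mediator subunit gene 2051 bases away, rose by 1.21 in B6 (adjusted p = 0.00101) and had 0.78 in 129 (adjusted p = 0.0804). On the other side Ptbp1, 26418 bases away, had 0.56 in B6 (limma, adjusted p = 7.27e-05) and -0.11 in 129 (adjusted p = 0.59).

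**Figure D3:**
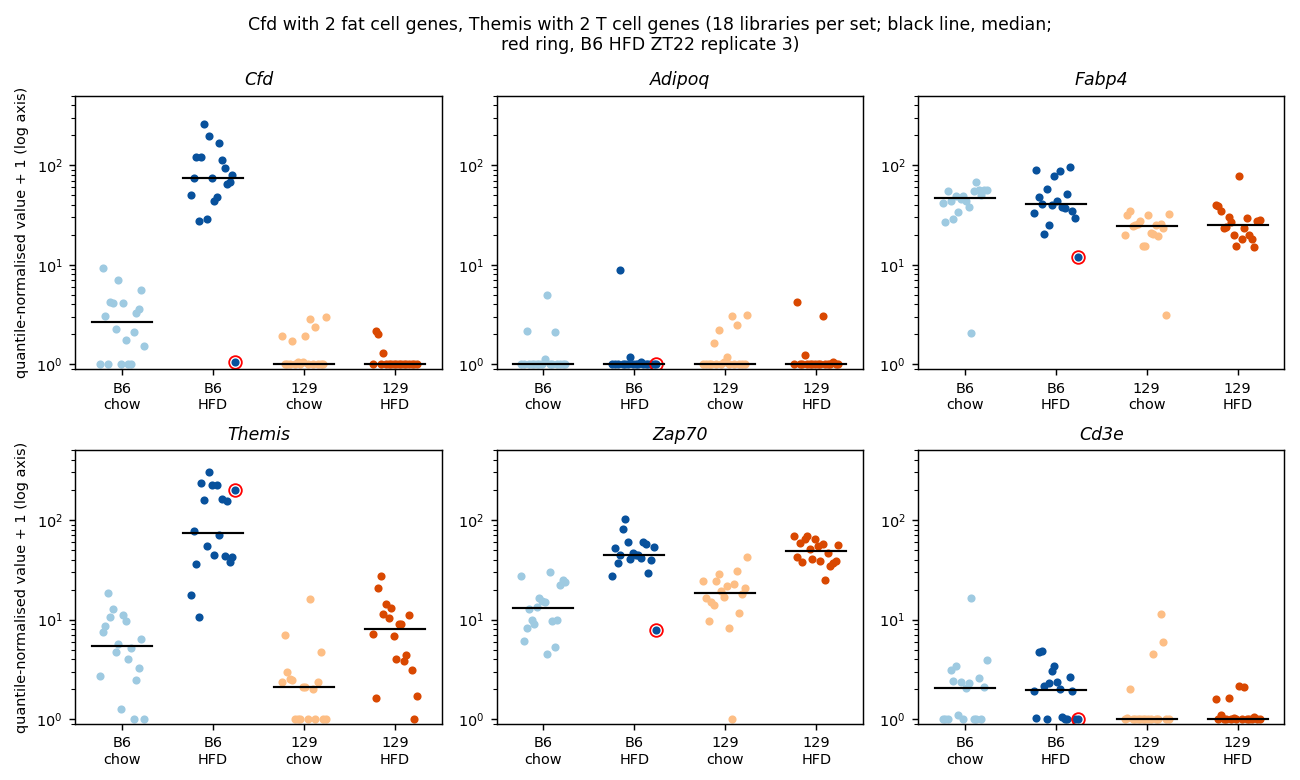
Quantile-normalised value + 1 on a log axis in every wild-type library, by strain and diet, of Cfd beside the fat cell genes Adipoq and Fabp4 and of Themis beside the T cell genes Zap70 and Cd3e; each point is 1 library and black lines are medians. The ringed B6 HFD library with summed neutrophil markers of 22992 has a Cfd value of 0.065 and a Themis value of 197.

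Gpc1 (chr1:92831645-92860211, plus strand) separated the diets completely in B6. Lowest, median and highest values were 0, 6.03 and 15.8 in B6 chow and 39.4, 86.2 and 204 in B6 HFD, so that all HFD libraries stood above all chow libraries. In 129 they were 0, 4.35 and 24.7 on chow and 7.91, 16.2 and 42.9 on HFD, with 16 of 18 HFD libraries inside the chow range, whose top value came from the library with 6.95% of genes under 1. The B6 difference was 3.89 ± 0.31. In 129 Gpc1 rose by 1.63 ± 0.31 (limma, adjusted p = 7.38e-05), with the same difference and adjusted p = 0.0001726 with no filter on low values. The 129 chow mean, 6.623, was under the minimum mean of 10, which Gpc1 reached only with B6 HFD included. At single times it passed in 129 at ZT2 (3.52, limma adjusted p = 0.00426). The chow replicates there were 3.48, 0 and 0, so libraries at 0 entered that call and its size is uncertain. At ZT18 and ZT22 the diets overlapped in 129. Libraries labelled Esrrg LKO averaged 261 ± 92.1 and those labelled Errg-Cre 36.2 ± 16.3.

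Of 17 tested heparan sulfate genes 7 rose and 4 fell in B6, with a median of 0.22, where 27.5% of all genes rose and 32.7% fell. The basement membrane proteoglycan Hspg2 rose by 2.40 (adjusted p = 6.12e-08), Agrn by 0.79, and the syndecans Sdc1 and Sdc3 by 0.70 each. In 129, 2 rose and 1 fell, the polymerase Ext1 at 0.36 among them, with a median of -0.06 and Hspg2 at 0.05, where 10.9% of all genes rose and 7.45% fell. In both strains the list moved about as often as genes did in general. Stellate cell markers, which rose in 7 of 8 cases in B6, summed to 1975 to 2714 on chow and 2947 to 4958 on HFD there, without overlap, and their part in the heparan sulfate genes was not tested.

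Themis (chr10:28668360-28883818, plus strand) was lowest, median and highest at 0, 4.43 and 17.6 in B6 chow and 9.69, 73.3 and 302 in B6 HFD. In 129 it was at 0, 1.10 and 15.1 on chow and 0.006, 7.07 and 26.2 on HFD. Only 2 B6 HFD libraries lay within the B6 chow range, while 16 of 18 HFD libraries did in 129. The B6 difference was 4.06 ± 0.38. In 129 Themis rose by 1.62 ± 0.38 (limma, adjusted p = 0.0015), and by the same difference with adjusted p = 0.00341 with no filter on low values (0.000856 to 0.0271 over 13 alternatives). These 129 values were low, with means of 1.99 on chow and 7.87 on HFD, both under the minimum mean of 10, which Themis reached through B6 HFD alone. Its mean was 94.4 ± 62.2 in libraries labelled Esrrg LKO and 4.28 ± 2.67 in those labelled Errg-Cre.

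Replicates of Themis spread widely. In B6 HFD at ZT6 they were 9.69, 232 and 158, the lowest from the library with 3.25% of genes under 1 and the highest Mir6236, and at ZT10 they were 53.7, 302 and 223. A short Themis transcript of 1521 bases averaged 4.72 in B6 HFD, against 115 for the one described. Of the T cell markers, Cd3e averaged 1.71 and 1.14 in B6 chow and HFD and 1.10 and 0.203 in 129, and so did not follow Themis. The kinase gene Zap70 rose in B6 from 13.7 to 47.3 (1.78 ± 0.25, adjusted p = 5.26e-08) and in 129 from 18.23 to 48.3 (1.58, adjusted p = 4.85e-06). Of the 6 tested genes of T cells and Themis partners 2 rose and 1 fell in B6, and 3 rose in 129, with the phosphatase Ptpn6 at 0.70 and 0.48, Grb2 at -0.29 in B6 and Themis2 at 0.79 in 129. The list medians were 0.30 and 0.31. The summed level of the list ranged from 577 to 806 in B6 chow and from 588 to 1039 in B6 HFD. Its highest value, 1039, came from the library with high neutrophil markers. Much of the sum was the Themis partner gene Ptpn11, at means of 420 in B6 chow and 441 in B6 HFD, so the sum says little about T cells. The part of T cells in the Themis level was not tested.

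Mtnr1a (chr8:45069107-45088506, plus strand), the gene of melatonin receptor 1, was lowest, median and highest at 0, 6.79 and 34.3 in 129 chow and 15.5, 37.3 and 74.3 in 129 HFD. B6 values were 0, 5.05 and 29.7 on chow and 9.26, 26.1 and 45.2 on HFD. The diets overlapped in both strains, with 12 of 18 HFD libraries inside the chow range in B6 through a single chow library at 29.7 (ZT6). Mtnr1a was 2.69 ± 0.31 higher in 129 and rose by 1.98 ± 0.31 in B6 (limma, adjusted p = 3.82e-07), where it passed at ZT14 (adjusted p = 0.00486) and ZT18 (adjusted p = 0.00723). At ZT14 the B6 chow replicates were 6.69, 1.97 and 0, the 0 from the library with 14.8% of tested genes under 1. Libraries labelled Errg-Cre averaged 32.8 ± 14.6 and those labelled Esrrg LKO 34.1 ± 14.5. The other melatonin receptor gene, Mtnr1b, averaged 1.24 or less in every wild-type set. Of 7 tested genes of melatonin signalling and breakdown 1 rose and 4 fell in B6, and 1 rose and 3 fell in 129, with the melatonin-degrading Cyp1a2 at -0.95 and -0.73 and the tryptophan dioxygenase Tdo2 at -0.88 and -0.31.

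Adgrv1 (chr13:81095068-81633144, minus strand) separated the diets completely in 129. Lowest, median and highest values there were 2.38, 18.25 and 40.0 on chow and 51.1, 110.5 and 312 on HFD. In B6 they were 0, 14.04 and 39.8 on chow and 3.94, 68.8 and 177 on HFD, where 12 of 18 HFD libraries stood above all chow libraries. Adgrv1 was 2.64 ± 0.32 higher in 129 and rose by 2.08 ± 0.32 in B6 (limma, adjusted p = 2.09e-07), and by 2.27 ± 0.30 without the library with high neutrophil markers, which gave the 3.94. It passed in B6 at ZT14 (adjusted p = 0.000582) and ZT18 (adjusted p = 0.0115). At ZT14 the B6 chow replicates were 17.5, 15.1 and 0, the 0 from the library with 14.8% of tested genes under 1. Libraries labelled Errg-Cre averaged 130.9 ± 72.9 and those labelled Esrrg LKO 95.4 ± 64.7. On 1 side the next tested gene was Arrdc3, an arrestin-domain gene 199030 bases away. It rose by 0.73 in B6 (limma, adjusted p = 0.00105) and by 1.41 in 129 (adjusted p = 1.27e-07). On the other side Lysmd3, 24662 bases away, had -0.33 in B6 (adjusted p = 0.00613) and 0.01 in 129 (adjusted p = 0.959). Of 10 tested adhesion receptors 2 rose and 3 fell in B6, and 3 rose and 1 fell in 129, with Adgrf1 at -2.23 and -1.303, Adgre5 at 0.67 and 0.49, and the macrophage marker Adgre1 at 0.81 in 129.

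Pcdh11x (chrX:120290327-120910618, plus strand) was high in 129 livers on HFD. Lowest, median and highest values were 0, 1.76 and 13.5 in 129 chow and 29.8, 63.9 and 107.7 in 129 HFD, with no overlap, the highest chow value coming from the library with 6.95% of genes under 1. In B6 they were 0, 3.77 and 27.8 on chow and 2.38, 5.47 and 12.5 on HFD, and every HFD library lay within the chow range. The B6 chow value of 27.8 came from the library with 14.8% of tested genes under 1. The 129 difference was 4.57 ± 0.33, from 3.28 at ZT22 to 5.22 at ZT14. In B6 both means, 4.74 and 5.78, were under the minimum mean of 10, which the gene reached through 129 HFD alone, and the difference of 0.67 ± 0.33 did not pass the test (limma, adjusted p = 0.0726). It did pass, at 2.03 ± 0.55 (adjusted p = 0.0166), with Mir6236 as a covariate, at 1.16 ± 0.32 (adjusted p = 0.00241) with the trend over GC content and length removed, and at 0.73 (adjusted p = 0.0345) without the 3 libraries with the most low genes, and its adjusted p ranged from 0.00241 to 0.379 over 13 alternatives. Libraries labelled Errg-Cre averaged 53.9 ± 36.5 and those labelled Esrrg LKO 12.1 ± 4.42. Of 8 tested protocadherin and related genes 3 rose in B6 and 1 in 129, with Dchs1 at 1.18 and Pcdh1 at 0.91 in B6 and Celsr1 at 0.68 and 0.61.

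Tcf24 (chr1:9960163-9967810, minus strand) was lower on HFD in both strains. Lowest, median and highest values were 64.9, 105 and 267 in B6 chow and 0, 1.47 and 11.2 in B6 HFD, and 87.0, 164 and 333 in 129 chow and 11.7, 31.2 and 66.2 in 129 HFD. All chow libraries stood above all HFD libraries of the same strain, and all 129 HFD libraries above all B6 HFD libraries. The difference was -5.49 ± 0.23 in B6 and -2.40 ± 0.23 in 129, and both effects were used to pick the gene. By time it ran from -4.98 at ZT10 to -5.86 at ZT14 in B6 and from -1.98 at ZT22 to -3.10 at ZT2 in 129. Libraries labelled Esrrg LKO averaged 2.93 ± 3.06, with 5 at 0, and those labelled Errg-Cre 26.9 ± 18.7. Of 10 tested basic helix-loop-helix genes 2 rose and 1 fell in B6, with Tcf3 at 0.82 and Id3 at 0.76, and 1 rose in 129, Bhlhe40 at 0.30. The neighbouring Snhg6, a small nucleolar RNA host gene, fell by 0.97 in B6 (adjusted p = 1.78e-06) and by 0.52 in 129 (adjusted p = 0.0203). On the other side Cops5, 56790 bases away, had -0.39 in B6 (limma, adjusted p = 3.6e-07) and 0.16 in 129 (adjusted p = 0.0668).

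Across strains, 3 of the 5 genes tested in B6 passed, all higher on HFD, where 27.5% of 11287 tested genes passed as higher and 32.7% as lower. In 129, 3 of the 4 genes tested passed, all higher on HFD, beside 10.9% of all genes passing as higher and 7.45% as lower, and Cfd, near 0 on both diets, gave a test that says nothing. Cfd, Themis, Gpc1, Treh and Pcdh11x averaged under 10 over the 54 wild-type libraries outside their highest set (0.915, 5.11, 9.94, 9.97 and 4.54), so these 5 were tested only because they were high in a set that picked them, and the counts are no support for the choice. Osbpl3, Mtnr1a and Adgrv1 in B6 and Mfsd2a, Gpc1 and Themis in 129 passed under all 13 alternatives, the Mir6236 covariate included. Since a large share of all genes passed in B6, the count there says little about these genes in particular. Complete separation of the 18 libraries on each diet was found for Gpc1 (0.31% of all genes, higher on HFD) and Tcf24 (0.425%, lower) in B6, and for Adgrv1 and Pcdh11x (0.115%) and Tcf24 (0.0886%, lower) in 129, in each case in a strain that had picked the gene. Diets that did not overlap at any of the 6 times were found in B6 for Gpc1 (1.13% of all genes, higher) and Tcf24 (1.17%, lower), and in 129 for Osbpl3, Treh, Adgrv1 and Pcdh11x (0.399%, higher) and Tcf24 (0.248%, lower).

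At single times with 3 against 3 libraries fewer tests passed. Of the 5 genes tested in B6, 3 passed at ZT14 (30.2% of all genes), 3 at ZT18 (23.1%), 1 at ZT10 (4.53%) and 1 at ZT22 (4.77%), and by limma 0 passed at ZT2 (3 at an unadjusted p under 0.05, with 14.7% of all genes passing) and 0 at ZT6 (1 unadjusted, with 35.1%). Of the 4 tested in 129, 1 passed at ZT2 (4.17%), 1 at ZT6 (1.26%) and 1 at ZT22 (6.6%), and by limma 0 passed at ZT10 (1 unadjusted, with 0.23%), ZT14 (1 unadjusted, with 0.372%) and ZT18 (0 unadjusted, with 5.49%). Osbpl3 was the gene that passed in B6 at ZT10 and ZT22, times at which few genes of any kind passed. The 3 that passed in B6 at ZT14 were Osbpl3, Mtnr1a and Adgrv1. For each of them 1 of the 3 chow libraries at that time was at 0, the library with 14.8% of tested genes under 1. The part of that library in the ZT14 calls was not tested.

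Ranked per kilobase of transcript, Mfsd2a was the most abundant on HFD in both strains, at a mean of 230.3 in B6 and 189 in 129. In B6 it was followed by Cfd at 98.1, Gpc1 at 29.1, Themis at 22.7, Osbpl3 at 17.2 and Mtnr1a at 16.3, and then by Treh at 6.89 and Adgrv1 at 3.63. In 129 the next were Mtnr1a at 25.2, Treh at 23.9, Tcf24 at 8.74 and Pcdh11x at 7.69. Pcdh11x and Tcf24 closed the B6 order at 0.672 and 0.581, and Themis and Cfd the 129 order at 1.55 and 0.151. Neighbours such as Osbpl3 and Mtnr1a in B6, or Mtnr1a and Treh in 129, lay closer than their spread over libraries.

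Daily rhythms were tested within each set with a 24 h cosine, using the variation over time. That variation entered the assignment of genes to strains only in that the diet difference had to keep its sign at all 6 times. In B6 chow, 1 of 10 genes passed (6.16% of all genes): Mfsd2a, with an amplitude of 1.35 ± 0.26 (log2, SE) and a 6.52-fold peak-to-trough difference (limma F test, adjusted p = 0.000982) peaking at ZT15.5. In 129 chow, 3 of 10 passed (47.8% of all genes). Mfsd2a had an amplitude of 1.5 ± 0.26 (adjusted p = 2.9e-05) and peaked at ZT15.0, Osbpl3 had 1.11 ± 0.30 (adjusted p = 0.00793) and peaked at ZT10.9, and Mtnr1a had 1.02 ± 0.32 (adjusted p = 0.0247) and peaked at ZT1.89. The share of 3 in 10 is not read as a result about these genes, since 5 of the 10 reached the filter only with their highest set. Cfd averaged 0.437 in 129 chow, with 9 of 18 libraries at 0, and could hardly show a rhythm. With Mir6236, which itself moved with time there, as a covariate, Mfsd2a (1.36, adjusted p = 0.00173) and Osbpl3 (1.09, adjusted p = 0.0257) still passed, Mtnr1a did not (0.99, adjusted p = 0.0998), and the amplitude of Gpc1 went from 0.91 to 0.07. The part of Mir6236 in these rhythms was not tested further.

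The time courses show the shape behind these fits. Mfsd2a in 129 chow averaged 85.6 at ZT2, 74.0 at ZT6, 260 at ZT10, 519 at ZT14, 260.5 at ZT18 and 111 at ZT22. Osbpl3 in 129 chow was highest at ZT14, at 14.4 ± 4.95, and lowest at ZT22, at 1.56 ± 2.70. Mtnr1a in 129 chow was highest at ZT22, at 16.0 ± 15.9, where the replicate with 6.95% of genes under 1 stood at 34.3 and the others both at 6.79, and lowest at ZT18, at 1.302 ± 2.25. The Mtnr1a call rests on few libraries: its adjusted p ranged from 0.0208 to 0.16 over 13 alternatives and missed the threshold without replicate 2 (0.0628) or 3 (0.16). That of Osbpl3 ranged from 0.0047 to 0.111 and missed it without replicate 1 (0.111) or 3 (0.0517). Mfsd2a in B6 chow missed it without replicate 2 (amplitude 1.18, adjusted p = 0.114), within a range from 0.000142 to 0.114.

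**Figure D4:**
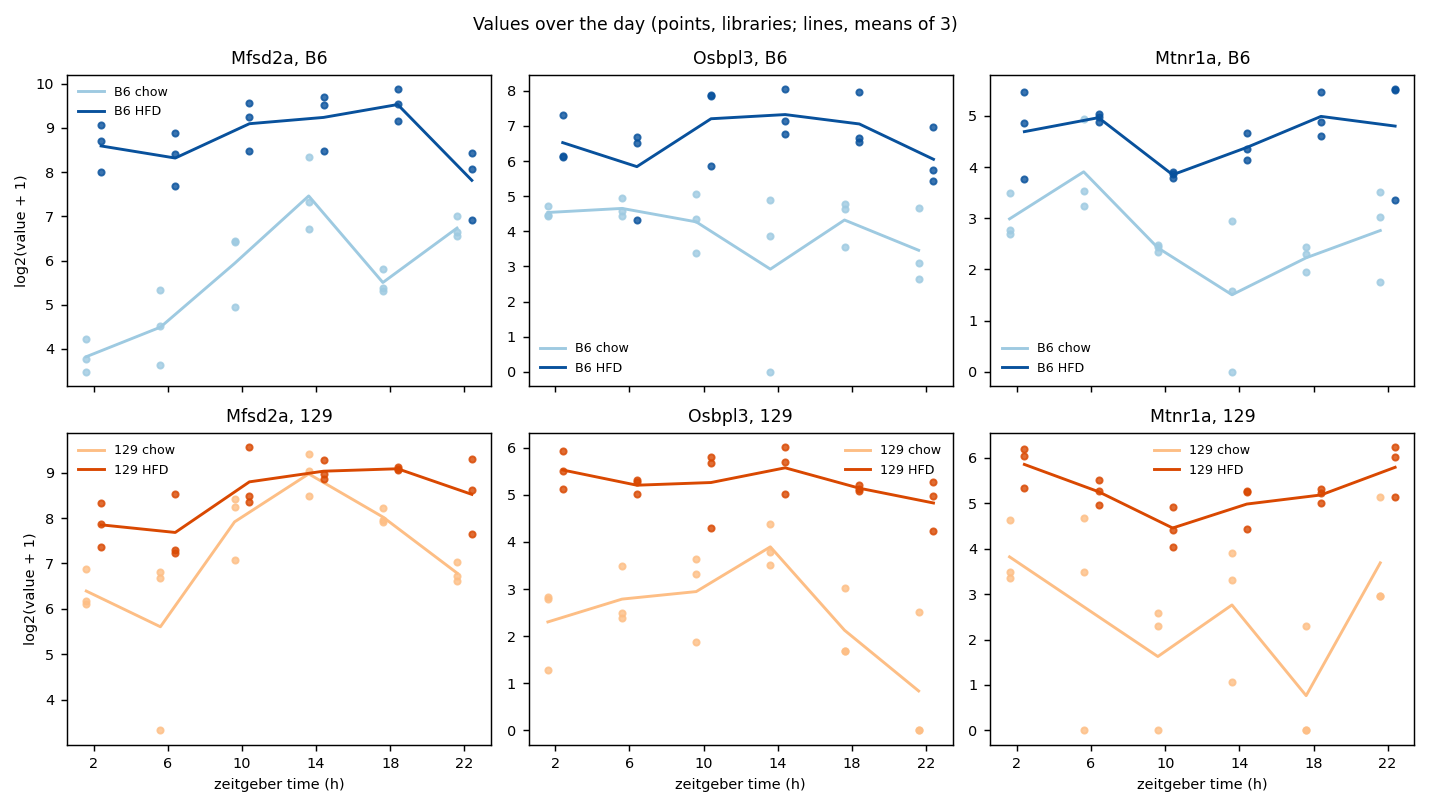
Time courses of Mfsd2a, Osbpl3 and Mtnr1a over zeitgeber time (h) in the 4 wild-type sets, in log2(value + 1); points are single libraries and lines join the means of 3 log2 values. Mfsd2a on chow is highest at ZT14 in both strains, where the 129 chow and HFD lines meet.

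On HFD no rhythm passed: 0 of 10 in B6 (limma, 2 at an unadjusted p under 0.05, Treh and Tcf24, with 4.08% of all genes passing) and 0 of 10 in 129 (2, Mfsd2a and Themis, with 7.04%). In the libraries labelled Errg-Cre 0 of 8 tested genes passed (2 unadjusted, Osbpl3 and Mtnr1a, with 17.9%), and in those labelled Esrrg LKO 0 of 9 (4 unadjusted, Mfsd2a, Osbpl3, Mtnr1a and Adgrv1, with 6.09%). The change of rhythm between diets was tested directly and passed for 0 of 10 genes in B6 (limma, 1 unadjusted, Osbpl3, with 0.0532% of all genes passing) and for 0 of 10 in 129 (0 unadjusted, with 1.26%). A rhythm that passed on chow and not on HFD is thus not shown to differ between diets for any of these genes, Mfsd2a included. The difference of that change between strains passed for 0 of 10 (1 unadjusted, Osbpl3, with 0% of all genes).

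Genes whose levels ran most like each member over the 72 wild-type libraries are given as a description, since diet, strain and shared libraries all enter the correlation. For Cfd they were Cyp2b9 (Pearson r = 0.85) and Tpm2 (0.82), and for Mfsd2a 1810055G02Rik (0.89) and the triglyceride-lowering apolipoprotein gene Apoa5 (0.83). Osbpl3 ran with the fatty acid binding protein gene Fabp2 (0.79) and the lipid droplet gene Plin4 (0.77), and Gpc1 with the class I histocompatibility genes H2-T23 and H2-Q10 (0.85 each). Tcf24 ran with the chemokine gene Ccl9 (0.85) and Tirap (0.82), Themis with Tgfbi (0.81), and Pcdh11x with the estrogen sulfotransferase gene Sult1e1 and Omd (0.73 each). Adgrv1 and Mtnr1a shared the ketone and isoleucine metabolism gene Acat1, at 0.76 and 0.73. Treh had the weakest match, 0.69 with Ssrp1.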

How the data were processed

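Signal values were used as the authors deposited them: quantile-normalised numbers of reads for each RefSeq transcript, from STAR and HOMER on mm10, the B6 genome sequence, per the submitters' processing notes (versions are not given in the sources used here). Each table had 42361 transcripts, and 18 columns that match no label stayed unused. All wild-type libraries sum to 10837743, so counting error is unknown. For each symbol and table the transcript with the highest mean was tested if this mean reached 10 (11287 wild-type genes). Cfd, Themis and Pcdh11x met this through a single set, and Gpc1 and Treh would narrowly miss it without their highest set. Cfd and Themis missed it in the Errg-Cre table and Tcf24 in the Esrrg LKO table. The log2(value + 1) was fitted in R 4.3.3 by limma 3.58.1 (trended eBayes, 24 group means, 72 libraries), with Benjamini-Hochberg adjustment over all genes and a threshold of 0.05, after the code had been tested on simulated data. Diet contrasts average the 6 times. The labels name no separate animals for the replicates, so a p-value reflects only how far these samples spread, which may be technical. Members and gene lists were chosen with earlier results of these data known. Other named genes are at most 4 passing genes per list, markers beside a result, genes just past the rank edge, tested neighbours and the 2 most correlated genes. Promoter sequences are from RefSeq.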

Additional observations from a re-analysis of the deposited data

How the results depend on the processing

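Of the diet tests over 13 alternative settings, 113 kept their side of the threshold and direction, and 4 newly passed. The number of genes passing in 129 was 3 under every alternative, and in B6 it was 3 to 4. It was 3 to 4 in B6 and 3 to 3 in 129 when a replicate number was left out. Treh passed in B6 only without replicate 1 (0.94, adjusted p = 0.036, range 0.036 to 0.983). A pseudocount of 5 moved the described differences of Cfd in B6 to 3.39, of Tcf24 in B6 to -4.09 and of Pcdh11x in 129 to 3.196.

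The rhythm count in 129 chow was 5 without the 3 libraries with the most low genes, and 2 to 2 with a replicate left out, against 3. In the Errg-Cre set it was 1 without those libraries and 1 with robust moderation, and 0 to 1 with a replicate left out, against 0; in B6 chow it was 0 to 1, against 1. Osbpl3 missed the threshold in 129 chow at a pseudocount of 5 (0.0585), and Mtnr1a without a filter (0.0507) or with the Mir6236 covariate (0.0998). The causes were not tested. Over all genes the diet calls in B6 and 129 were 6792 and 2071, 565 and 2607 with that covariate, and 5304 and 556 without replicate 2. With the replicate block both diet counts stayed at 3, and over all genes 6770 and 2062 passed. Of 36 pairs of same-numbered sets, 5 correlated above 0.1 (median 0.0127), so the numbers were not taken to pair samples. Removing the GC and length trend and leaving out the library with high neutrophil markers were chosen after seeing the data. Unknown depth limits what the low values of Cfd, Themis and Pcdh11x can show.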
